A study of Mus musculus with 24 samples.

Results

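The genes described here are the expressed genes of mouse chromosome 16, selected on their position and their mean level. Every gene whose locus lay on chromosome 16 and whose FPKM (reads corrected for transcript length and for the depth of the library) averaged at least 5 over 24 libraries was taken, which gave 296 genes. Of these, 11 were left out by symbol (Olig1, Olig2, Hes1, Boc and 7 genes of ribosomal proteins or of the respiratory chain), leaving 285 of the 23119 genes in the table and of the 12105 genes tested. All 285 passed the filter of the test, a mean FPKM of at least 1. The libraries came from JB4/EI7HZ2, a female mouse embryonic stem cell (mESC) line whose parents were of the JF1 and B6 strains, either wild type (WT) or carrying a mutation of SmcHD1 made with CRISPR–Cas9 (KO). Both were grown under G418 and zeocin selection, which keeps cells with both X chromosomes. RNA was taken from mESCs held in serum with 2i and LIF, from cells differentiated towards neurectoderm for 7 days and for 9 days, and from neural stem cells (NSCs) derived from the mESCs of each line, with 3 libraries for each genotype and stage. The KO cells were 1 line, so genotype and line cannot be told apart, and the study describes the replicates as independent experiments on it, so p-values measure the spread between experiments on 1 line of each genotype. DNA copy number of the WT and KO lines was not analysed here.

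SmcHD1 is a noncanonical structural maintenance of chromosomes protein that binds the inactive X chromosome and some imprinted and clustered autosomal genes, and that is needed for the silencing of part of them. Chromosome 16 is an autosome. Its genes lie in blocks whose order is kept in several human chromosomes, among them most of the gene-bearing arm of human chromosome 21, which holds App, Sod1 and the interferon receptor cluster, and the region of human chromosome 22 that is deleted in DiGeorge syndrome, which holds Ranbp1 and Prodh. The genes are not a pathway, and the axis of comparison below is their place along the chromosome.

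Smchd1, the targeted gene, had between 13.0 and 26.4 FPKM in the 12 WT libraries and between 1.82 and 4.40 FPKM in the 12 KO libraries. The pluripotency markers summed to at least 2546 FPKM in every mESC library and to at most 6.48 FPKM in every NSC library. At day 7 the 5 endoderm markers summed to between 61.0 and 152 FPKM in WT and to between 1.09 and 4.58 FPKM in KO, and the 5 mesoderm markers to between 61.4 and 161 FPKM in WT and to between 3.64 and 5.43 FPKM in KO, with Mesp1 listed at 0 in KO. The neuron markers found in the table (4 of 5) summed to between 110 and 150 FPKM in WT and to between 152 and 181 FPKM in KO at day 7, and to between 488 and 535 FPKM in WT and to between 262 and 365 FPKM in KO at day 9. Dcx, on the X chromosome, was among the 4 and was listed at 0 in every group. The 5 neurectoderm markers had higher sums in KO, with 68.1 to 81.3 FPKM in WT and 143 to 169 FPKM in KO at day 7, and of 66.8 to 98.9 FPKM and 173 to 188 FPKM at day 9. The sum of the neural crest and fibroblast markers at day 9 was 20.1 to 52.9 FPKM in WT and 5.29 to 6.47 FPKM in KO, and endoderm and mesoderm markers were still lower in KO (4.70 to 14.4 FPKM against 28.2 to 52.2 FPKM, and 6.32 to 16.1 FPKM against 17.8 to 48.3 FPKM). Among NSCs, the neural stem cell markers summed to 5183 to 6755 FPKM in WT and to 3722 to 4598 FPKM in KO, and the neurectoderm markers to 28.5 to 35.4 FPKM and to 41.9 to 49.1 FPKM. In mESCs the sums of WT and KO overlapped for every marker list. The part of these cells in the results below was not tested, and in bulk RNA fewer cells of a type and less RNA per cell cannot be told apart.

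The 250 bases before the transcription start are shown for 5 entries that passed the test of KO against WT at 2 stages (their values are given further on). Mrps6 is shown for the joint entry Mrps6,Slc5a3, whose reads cannot be divided between its 2 genes. The sequences are those of RefSeq for GRCm38.p6, matched by symbol (216 of the 285 genes had an entry, and the first start was taken). Each matched 1 place on chromosome 16 of mm9, the build of the files, and the other chromosomes were not searched. They are written 5′ to 3′ on the strand of the gene, with each CG dinucleotide in capitals. Ephb3 lies on the plus strand (mm9 chr16:21204618-21204867), as do Fstl1 (chr16:37776891-37777140), Tmem39a (chr16:38558561-38558810) and Mrps6 (chr16:92058331-92058580), and Zc3h7a lies on the minus strand (chr16:11176487-11176736).
Ephb3: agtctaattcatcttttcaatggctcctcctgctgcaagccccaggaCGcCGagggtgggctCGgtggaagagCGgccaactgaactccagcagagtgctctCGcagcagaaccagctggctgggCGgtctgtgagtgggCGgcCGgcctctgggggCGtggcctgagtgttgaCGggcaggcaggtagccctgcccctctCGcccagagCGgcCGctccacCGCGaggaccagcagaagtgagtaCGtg
Zc3h7a: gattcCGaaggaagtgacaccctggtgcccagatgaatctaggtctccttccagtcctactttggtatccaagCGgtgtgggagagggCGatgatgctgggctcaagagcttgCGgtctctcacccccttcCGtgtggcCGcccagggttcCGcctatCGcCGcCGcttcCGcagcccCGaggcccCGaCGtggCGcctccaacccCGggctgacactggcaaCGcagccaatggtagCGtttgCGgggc
Fstl1: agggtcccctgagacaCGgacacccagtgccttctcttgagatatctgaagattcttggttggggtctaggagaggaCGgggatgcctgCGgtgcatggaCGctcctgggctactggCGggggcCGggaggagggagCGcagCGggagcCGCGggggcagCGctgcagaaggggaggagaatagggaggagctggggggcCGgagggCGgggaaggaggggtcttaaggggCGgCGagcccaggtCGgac
Tmem39a: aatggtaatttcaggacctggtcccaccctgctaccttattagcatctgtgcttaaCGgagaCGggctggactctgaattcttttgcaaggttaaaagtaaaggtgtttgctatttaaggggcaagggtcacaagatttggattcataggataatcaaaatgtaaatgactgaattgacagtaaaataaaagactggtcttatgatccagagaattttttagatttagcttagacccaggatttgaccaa
Mrps6: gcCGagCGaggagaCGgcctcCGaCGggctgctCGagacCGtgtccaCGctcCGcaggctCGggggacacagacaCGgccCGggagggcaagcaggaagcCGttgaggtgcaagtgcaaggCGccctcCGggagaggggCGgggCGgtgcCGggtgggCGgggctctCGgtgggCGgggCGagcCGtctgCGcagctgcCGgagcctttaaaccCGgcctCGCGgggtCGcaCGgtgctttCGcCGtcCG
The stretch held 16 CG dinucleotides in Ephb3, 19 in Zc3h7a, 16 in Fstl1, 33 in Mrps6 and 2 in Tmem39a. The median was 18 over the 216 chromosome 16 genes and 6 over all 27025 genes with a RefSeq entry, most of which were not among the expressed genes. The 17 of these genes that were lower in KO at day 7 or day 9 and had an entry had a median of 17. The 6 letters GGGCGG, on either strand, were found in 61.6% of the 216 chromosome 16 genes, in 64.7% of the 17 and in 32.9% of all 27025 genes with a RefSeq entry. The letters CCAAT, on either strand, were found in 38.0%, 41.2% and 34.5% respectively.

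Chromosome 16 genes were lower in KO than in WT as a body in mESCs, at day 7 and at day 9, and stood level with the other autosomes in NSCs. For each library the level of the chromosome was taken as the median, over its 285 genes, of log2(FPKM + 1) minus the mean of that gene over the 6 libraries of the stage, less the same median over 8660 genes of the other autosomes that averaged 5 FPKM or more. In mESCs this level was 0.035, 0.050 and 0.099 in WT replicates 1, 2 and 3, and -0.061, -0.056 and -0.056 in KO. At day 7 it was 0.10, 0.088 and 0.031 in WT and -0.076, -0.065 and -0.069 in KO. At day 9 it was 0.12, 0.097 and 0.052 in WT and -0.073, -0.073 and -0.090 in KO. All KO libraries lay below all WT libraries at these 3 stages. In NSCs it was 0.016, 0.0020 and -0.019 in WT and 0.0058, -0.0072 and 0.0067 in KO, and the groups overlapped. The WT libraries of 1 stage were spread more widely than the KO libraries, with an SD of 0.038 against 0.0052 at day 7 (n = 3 each). On this log2 scale the KO mean less the WT mean came to -0.12 in mESCs, -0.14 at day 7 and -0.17 at day 9, and to 0.0023 in NSCs, which is a level 7.91%, 9.50% and 10.9% lower and 0.161% higher. These are descriptions of a set chosen with results of the same libraries known, and they carry no test.

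**Figure D1:**
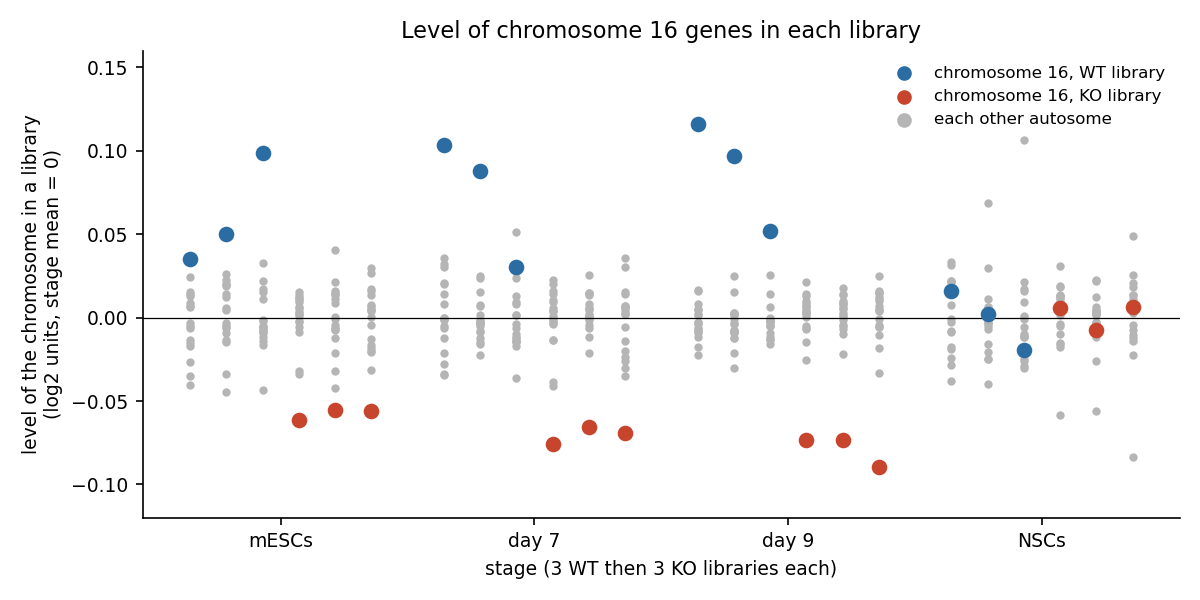
Level of chromosome 16 (large points, WT blue and KO red) and of each other autosome (grey points) in every library, in log2 units, with the mean of the stage at 0. In mESCs, at day 7 and at day 9 the KO points of chromosome 16 lie below every grey point of their library, and in NSCs all 6 points of chromosome 16 lie among the grey points.

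The place of chromosome 16 among the 19 autosomes was taken library by library. It had the lowest level of the 19 in each of the 9 KO libraries of mESCs, day 7 and day 9. In the 9 WT libraries of these stages it had the highest level in 7 and ranked 18 of 19 from the lowest in WT mESC replicate 1 and in WT day 7 replicate 3. In NSCs its rank from the lowest ran from 4 to 13. The median log2 fold change of its genes, KO over WT, was -0.097 in mESCs, -0.13 at day 7 and -0.16 at day 9, where the next lowest autosome had -0.033 (chromosome 8), -0.026 (chromosome 3) and -0.014 (chromosome 3). In NSCs the median was 0.0075 for chromosome 16, which ranked 6 of 19 from the lowest, and the lowest was chromosome 11 at -0.11. The median over the 8660 genes of other autosomes was 0.023, 0.015, 0.0092 and 0.0076 at the 4 stages.

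**Figure D2:**
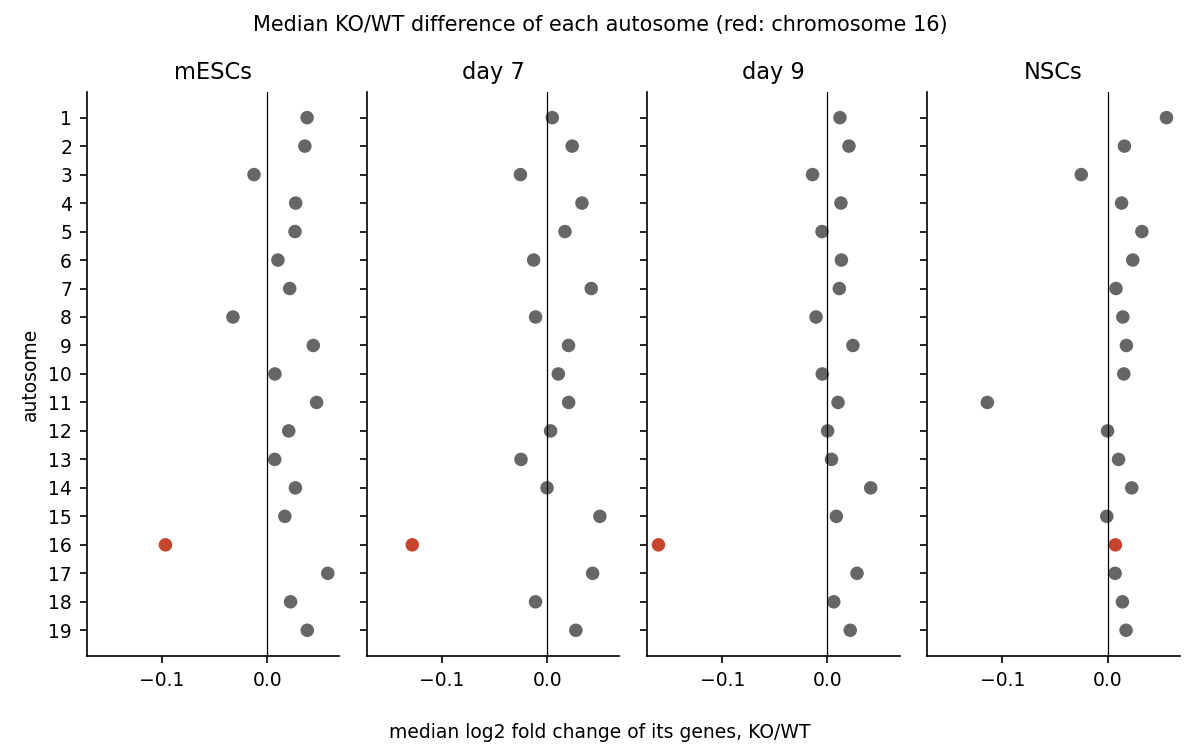
Median log2 fold change, KO over WT, of the genes of each autosome that averaged at least 5 FPKM, with 1 panel a stage and chromosome 16 in red. Chromosome 16 lies furthest to the left in mESCs (-0.097), at day 7 (-0.13) and at day 9 (-0.16), and at 0.0075 in NSCs.

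The lower level in KO was shared by most genes of the chromosome. In mESCs 218 of the 285 log2 fold changes were negative (76.5%, against 43.9% of the genes of other autosomes), at day 7 230 (80.7%, against 46.4%) and at day 9 228 (80.0%, against 47.7%). The NSC count was 136 (47.7%, with 47.6% on other autosomes). The lower quartile of the log2 fold changes was -0.19, -0.26, -0.27 and -0.11 over the 4 stages, and the upper quartile was -0.0078, -0.039, -0.036 and 0.11. The comparisons of mESCs, day 7 and day 9 use different libraries, and 159 of the 285 genes (55.8%) were lower in KO in all 3, against 15.2% of the genes of other autosomes. Only 8 (2.81%) were higher in all 3, against 22.6%.

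The shift ran along the chromosome from end to end. In 10-Mb windows of mm9, of which 10 held between 5 and 67 of the genes, the mean level of the KO libraries was below that of the WT libraries in 10 of 10 windows in mESCs, at day 7 and at day 9, and in 3 of 10 in NSCs. All 3 KO libraries lay below all 3 WT libraries in 9 of 10 windows at each of the first 3 stages and in 2 of 10 in NSCs. In mESCs the smallest median log2 fold change was that of the first 10 Mb, from Zfp263 to 1810013L24Rik, at -0.015 over 31 genes, of which 16 were negative. That window had -0.056 at day 7 and -0.17 at day 9. The window from 40 to 50 Mb, from Gap43 to Cd47 with 21 genes, had -0.20, -0.22 and -0.096 at the 3 stages. The last window, from Sod1 to A630089N07Rik with 35 genes, had -0.063, -0.12 and -0.18. In NSCs the window from 70 to 80 Mb had the lowest median, -0.27 over 7 genes of which 6 were negative, and it holds Cxadr.

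**Figure D3:**
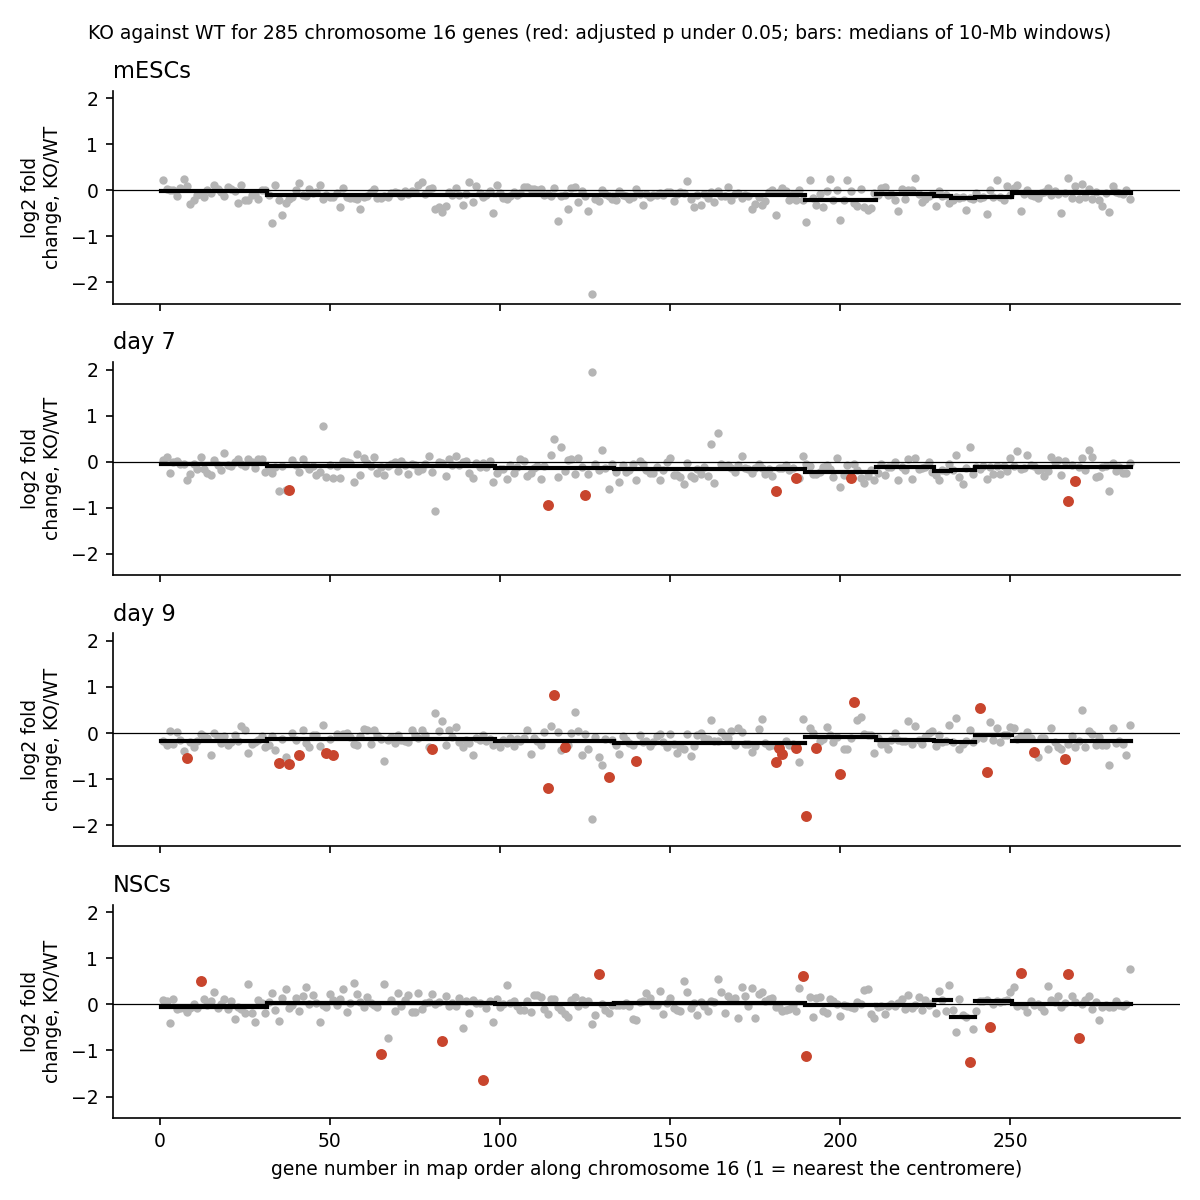
Log2 fold change, KO over WT, of the 285 genes in map order (x axis, gene number from the centromere), with 1 panel a stage. Red points passed the test (0, 8, 24 and 12 genes) and black bars are the medians of the 10-Mb windows, which lie below 0 in all 10 windows of the first 3 panels and on both sides of it in NSCs.

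**Figure D4:**
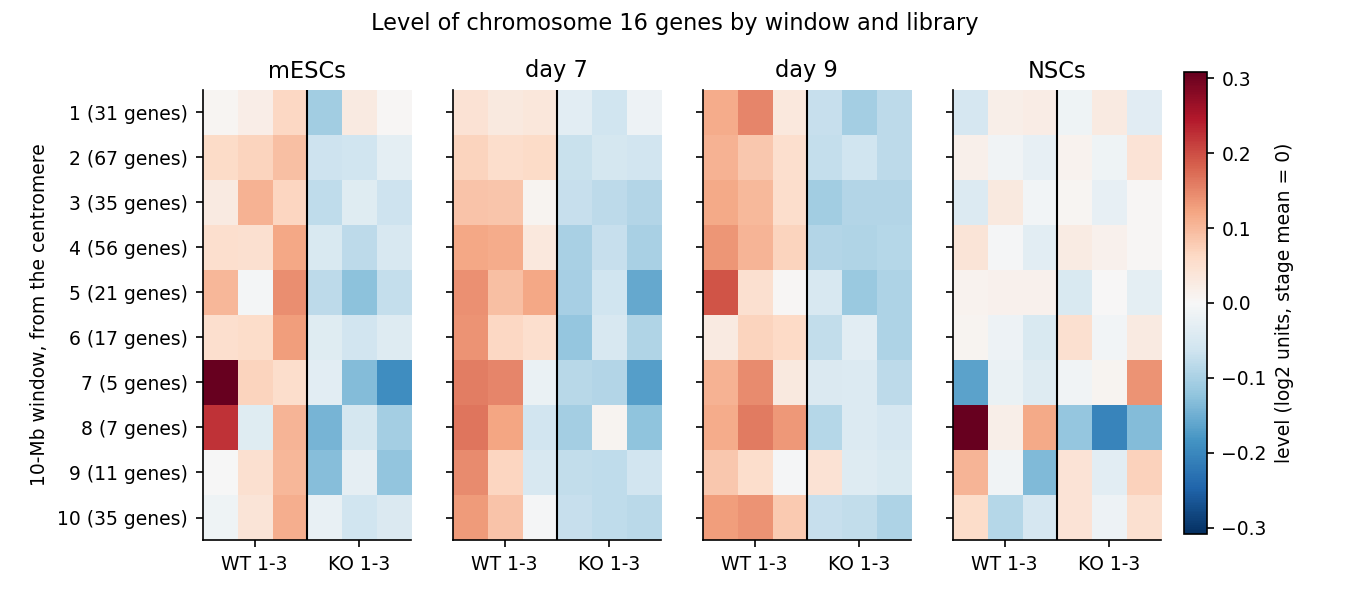
Level of the chromosome 16 genes in each 10-Mb window (rows, from the centromere) and each library (columns, WT then KO), in log2 units with the mean of the stage at 0. WT columns are mostly red and KO columns mostly blue in mESCs, at day 7 and at day 9, and NSCs show no such division.

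The median was negative in every tertile of the genes by level and by length at the first 3 stages. In tertiles of the 285 genes by mean FPKM (95 genes each, divided at 12.7 and 27.2 FPKM), the median log2 fold change was -0.13, -0.081 and -0.095 in mESCs, -0.17, -0.14 and -0.11 at day 7 and -0.18, -0.17 and -0.14 at day 9, from the lowest tertile to the highest. The genes of other autosomes within the same limits had -0.0035, 0.00085 and 0.036 at day 7. In tertiles by the length of the locus (divided at 20389 and 52641 bases) it was -0.095, -0.096 and -0.10 in mESCs, -0.10, -0.15 and -0.15 at day 7 and -0.16, -0.17 and -0.16 at day 9. Snora81, a small nucleolar RNA with the same locus as Eif4a2, was singled out after its values were seen. It had 73.1, 97.3 and 0 FPKM in the KO mESC libraries and a log2 fold change of -2.25 that did not pass the test (adjusted p of limma 0.838). This 1 entry does not show how precisely the other genes were measured.

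Gene by gene, few chromosome 16 genes passed the test, which was limma on log2(FPKM + 1) adjusted by Benjamini-Hochberg over the 12105 genes, where a gene is called if its adjusted p is under 0.05. In mESCs none of the 285 did, while 0.116% of all tested genes were called higher in KO and 0.413% lower. At an unadjusted p under 0.05, 30 of the 285 passed, 29 of them lower in KO (7.66% of all tested genes passed, in either direction). The numbers of the replicates pair the libraries in mESCs and in NSCs, and with the replicate block 5 genes were called in mESCs, all lower in KO (1.75%, against 0.628% of all tested genes). At day 7, 8 genes were called lower (2.81%, against 2.5% of all tested genes) and 0 higher (1.18% of all). At day 9, 21 were called lower (7.37%, against 4.11%) and 3 higher (1.05%, against 2.58%). In NSCs 7 were called lower (2.46%, against 3.48%) and 5 higher (1.75%, against 2.54%), and with the replicate block 11 were lower (3.86%, against 5.17%) and 9 higher (3.16%, against 4.29%). The count at day 9 fell to 8 genes without WT replicate 2 and to between 11 and 14 without WT replicate 3 or any 1 KO library, and that in NSCs was 29 without WT replicate 1 and 7 without WT replicate 3. Without WT replicate 2 the genes called lower at day 9 were 2.46%, against 2.2% of all tested genes, so that the shares lay nearer to each other than with all libraries. In NSCs the shares called were 10.2% against 11.2% without WT replicate 1 and 2.46% against 4.24% without WT replicate 3. The count in mESCs was 5 without WT replicate 2 and 2 without KO replicate 1, and that at day 7 was 4 without WT replicate 3, 5 without KO replicate 1 and 3 without KO replicate 3. For these counts, and for those between 11 and 14 at day 9, the shares of all tested genes are not given here. They show only how far the calls hang on single libraries, and are no result about chromosome 16.

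The same libraries were compared by their ranges, with no model. All 3 KO libraries lay below all 3 WT libraries for 38 chromosome 16 genes in mESCs (13.3%, against 5.93% of all tested genes), for 80 at day 7 (28.1%, against 12.3%), for 120 at day 9 (42.1%, against 16.8%) and for 16 in NSCs (5.61%, against 8.54%). They lay above for 4 in mESCs (1.40%, against 5.07%), 8 at day 7 (2.81%, against 11.6%), 8 at day 9 (2.81%, against 15.4%) and 17 in NSCs (5.96%, against 8.16%). An exact permutation test of 3 libraries against 3 cannot give a two-sided p under 0.1, so no gene can pass alone on its ranges.

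Of the genes that were lower, 4 passed the test both at day 7 and at day 9. Ephb3 encodes a receptor tyrosine kinase for membrane-bound ephrin-B ligands that guides axons and sets tissue borders. It had 11.5, 13.8 and 14.4 FPKM in WT and 7.31, 4.38 and 7.89 FPKM in KO at day 7, and 10.9, 14.3 and 12.9 FPKM in WT and 4.05, 6.06 and 4.93 FPKM in KO at day 9. The groups did not overlap, and the log2 fold change was -0.95 ± 0.18 (SE, adjusted p of limma 0.0026) at day 7 and -1.19 ± 0.18 (adjusted p 0.00015) at day 9. In mESCs, with 8.62, 7.06 and 7.64 FPKM in WT and 7.84, 6.57 and 7.53 FPKM in KO, and in NSCs, with 16.1, 24 and 15.9 FPKM in WT and 13.7, 18.5 and 15.2 FPKM in KO, the groups overlapped, although KO was the lower in every numbered pair.

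Fstl1 encodes a secreted follistatin-like glycoprotein that binds BMP ligands. It had 46.3, 56.9 and 60.5 FPKM in WT against 33.4, 37.6 and 33.4 FPKM in KO at day 7, and 71.6, 88.0 and 81.9 FPKM against 51.4, 49.7 and 54.3 FPKM at day 9. It was also below WT in every KO mESC library, at 31.3, 24.8 and 24.7 FPKM against 48.8, 35.4 and 34.8 FPKM, and that difference (log2 fold change -0.53) did not pass the test (adjusted p of limma 0.066) but did with the replicate block (adjusted p 0.015). The log2 fold change was -0.63 ± 0.13 at day 7 (SE, adjusted p of limma 0.0040) and -0.62 ± 0.13 at day 9 (adjusted p 0.0029). Zc3h7a, a zinc finger protein gene, had 9.87, 9.07 and 10.2 FPKM in WT and 5.77, 7.12 and 5.13 FPKM in KO at day 7, and 18.7, 17.6 and 19.2 FPKM and 8.97, 11.7 and 13.7 FPKM at day 9. Its log2 fold changes were -0.62 ± 0.14 (SE, adjusted p of limma 0.011) and -0.67 ± 0.14 (adjusted p 0.0041), and the call at day 7 was lost without WT replicate 3, KO replicate 1 or KO replicate 3. Tmem39a, which encodes a membrane protein and was singled out after its values were seen, had log2 fold changes of -0.35 and -0.32 (adjusted p of limma 0.032 and 0.035), and each was lost without any of several single libraries.

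Gap43 passed the test at day 9 and in NSCs. It encodes a growth cone protein of neurons and some glia. At day 9 it had 118, 164 and 162 FPKM in WT and 35.8, 37.7 and 51.6 FPKM in KO, a log2 fold change of -1.80 ± 0.26 (SE, adjusted p of limma 8.5e-05). In NSCs it had 163, 70.7 and 127 FPKM in WT and 71.8, 37.0 and 52.6 FPKM in KO, so that the groups overlapped, although KO was the lower in each of the 3 numbered pairs. The log2 fold change of -1.11 (adjusted p of limma 0.012, and 0.00015 with the replicate block) did not pass without WT replicate 3 or KO replicate 2, or with the NSC libraries fitted alone. At day 7 the groups overlapped as well, with 5.48 to 8.30 FPKM over the 6 libraries.

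Mrps6,Slc5a3 is 1 entry for a mitochondrial ribosomal protein gene and a myo-inositol transporter gene that share it, so its reads cannot be divided between them. At day 7 it had 62.2, 89.2 and 78.9 FPKM in WT and 36.5, 45.0 and 43.9 FPKM in KO, a log2 fold change of -0.85 ± 0.15 (SE, adjusted p of limma 0.0014). In NSCs the order was turned, with 147, 98.3 and 116 FPKM in WT and 208, 175 and 181 FPKM in KO, a log2 fold change of 0.65 (adjusted p of limma 0.012) that was lost without WT replicate 2 or KO replicate 1. At both stages the groups did not overlap.

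**Figure D5:**
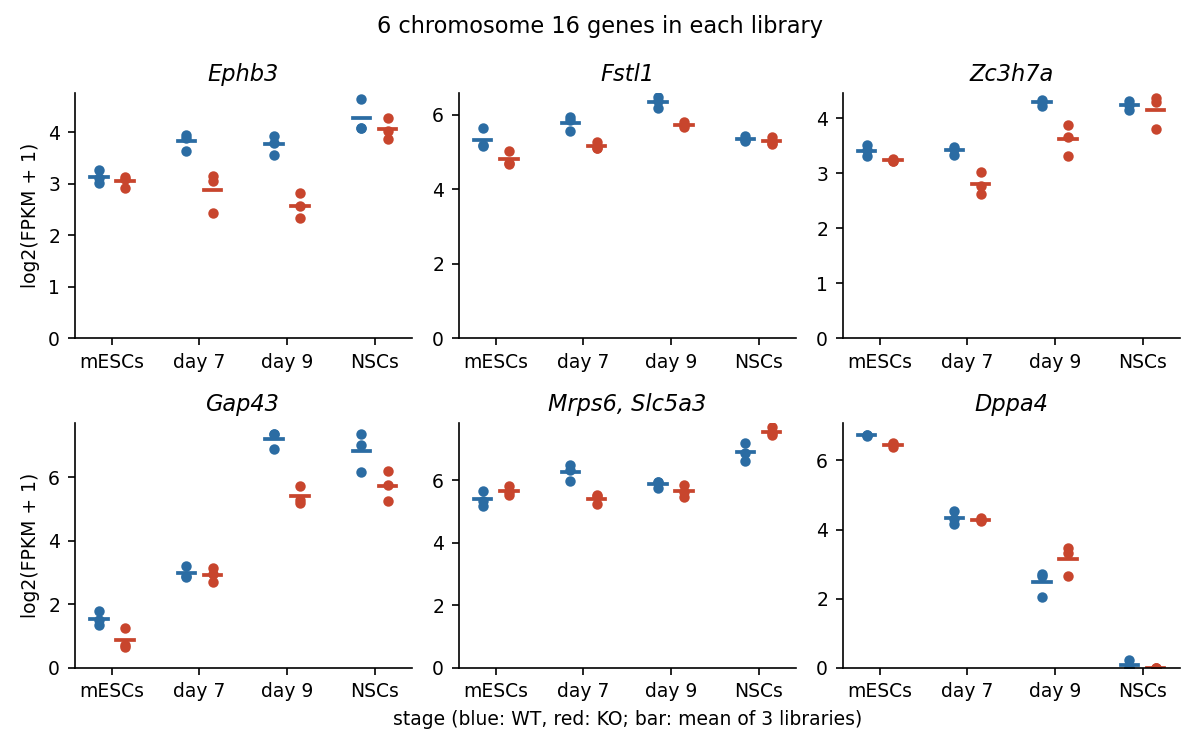
Log2(FPKM + 1) of 6 chromosome 16 genes in each library (points) with the mean of 3 libraries (bars), WT in blue and KO in red, by stage. Ephb3, Fstl1 and Zc3h7a have all KO points below all WT points at day 7 and day 9, Gap43 at day 9, and Mrps6, Slc5a3 below at day 7 and above in NSCs.

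The other named genes of day 7 and day 9 passed the test at 1 stage. Fetub, a gene of the fetuin family of secreted protease inhibitors, had 4.69, 4.22 and 5.70 FPKM in WT and 2.48, 3.29 and 1.91 FPKM in KO at day 7 (log2 fold change -0.73, adjusted p of limma 0.0082), and the call was lost without WT or KO replicate 3, when 0.1 was the pseudocount (adjusted p 0.26) and when the day 7 libraries were fitted alone (adjusted p 0.059). At day 9 Tagln3 and App, which are on the list of cell adhesion and axon guidance with Gap43, also fell. Tagln3, which encodes an actin-binding protein of neurons, had 106, 109 and 107 FPKM in WT and 50.2, 59.6 and 64.5 FPKM in KO (log2 fold change -0.88, adjusted p of limma 0.039). App, the broadly expressed amyloid precursor protein gene, had 108, 140 and 129 FPKM in WT and 71.9, 59.9 and 78.0 FPKM in KO (log2 fold change -0.84, adjusted p of limma 0.030). Both groups were apart, yet the call of Tagln3 was lost without any 1 of the 6 libraries and that of App without any of 4 of them, and both were lost with a pseudocount of 0.1 (adjusted p of limma 0.27 and 0.073). The neuron markers had a lower sum in KO at this stage (values above), and their part in these calls was not tested.

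Itsn1, 1600021P15Rik, Bdh1 and Litaf also fell at day 9. Itsn1, a scaffold of endocytosis, had 56.0, 61.2 and 53.5 FPKM in WT and 36.4, 38.7 and 39.4 FPKM in KO (log2 fold change -0.56 ± 0.095 SE, adjusted p of limma 0.00042). 1600021P15Rik had 13.6, 17.2 and 15.3 FPKM in WT and 6.30, 8.60 and 7.49 FPKM in KO (log2 fold change -0.96, adjusted p of limma 0.00068). Bdh1, the mitochondrial enzyme that interconverts the ketone bodies, had 3.23, 4.39 and 3.18 FPKM in WT and 2.34, 1.58 and 2.2 FPKM in KO (log2 fold change -0.60, adjusted p of limma 0.025), and was lost without WT or KO replicate 2. Litaf, which encodes an endosomal membrane protein, had 72.2, 62.9 and 62.6 FPKM in WT and 37.1, 45.7 and 41.9 FPKM in KO (log2 fold change -0.65, adjusted p of limma 0.036), and was lost without any 1 library of the stage and with a pseudocount of 0.1 (adjusted p 0.053).

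The 3 genes that were higher in KO at day 9 were 2510009E07Rik, Dppa4 and Jam2. 2510009E07Rik had 5.25, 4.21 and 3.89 FPKM in WT and 8.72, 7.93 and 9.20 FPKM in KO (log2 fold change 0.83 ± 0.16 SE, adjusted p of limma 0.0021). Jam2, a junctional adhesion molecule gene, had 23.3, 15.5 and 14.5 FPKM in WT and 25.4, 23.6 and 28.6 FPKM in KO (log2 fold change 0.54, adjusted p of limma 0.037). Dppa4, a pluripotency gene with a DNA-binding SAP domain, had 5.53, 3.16 and 5.36 FPKM in WT and 10.1, 5.27 and 8.95 FPKM in KO (log2 fold change 0.67, adjusted p of limma 0.019), and the groups overlapped. Without WT replicate 2 or KO replicate 1 or 3 neither Jam2 nor Dppa4 passed, and Jam2 also not without WT replicate 3. Both calls were also lost with a pseudocount of 0.1 (adjusted p of limma 0.052 and 0.15), with scaling to the same sum (0.16 and 0.056) and with the libraries of day 9 fitted alone (0.080 and 0.14). The pluripotency markers summed to between 63.8 and 93.3 FPKM in WT and to between 86.1 and 143 FPKM in KO at day 9, and their part was not tested.

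In NSCs, where the chromosome as a whole was level, single genes moved both ways. 2510002D24Rik had 3.32, 4.51 and 3.26 FPKM in WT and 0.609, 0.727 and 0.174 FPKM in KO (log2 fold change -1.65 ± 0.19 SE, adjusted p of limma 7.2e-06), the largest fall, while at the other stages it ranged from 5.39 to 11.6 FPKM with overlapping groups. Cxadr, the coxsackievirus and adenovirus receptor of cell junctions, had 10.5, 3.67 and 6.83 FPKM in WT and 2.47, 1.07 and 3.44 FPKM in KO (log2 fold change -1.24, adjusted p of limma 0.0029). 2610318N02Rik had 11.4, 10.9 and 8.63 FPKM in WT and 3.93, 6.69 and 3.03 FPKM in KO (log2 fold change -1.07, adjusted p of limma 0.0010). All of these had groups that did not overlap. The neural stem cell markers had a lower sum in KO NSCs (values above), and their part was not tested.

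Enzyme genes were among the other calls in NSCs. Prodh, the mitochondrial proline dehydrogenase, had 5.20, 4.38 and 4.75 FPKM in WT and 3.42, 1.89 and 1.89 FPKM in KO (log2 fold change -0.79, adjusted p of limma 0.0017). Cbr1, a carbonyl reductase, had 25.7, 42.7 and 42.6 FPKM in WT and 22.1, 19.2 and 22.8 FPKM in KO (log2 fold change -0.73, adjusted p of limma 0.0087), and was lost without WT replicate 3. Higher in KO were Nmral1, a redox-sensing NmrA-like protein, with 43.0, 34.3 and 34.3 FPKM in WT and 57.2, 54.9 and 47.4 FPKM in KO (log2 fold change 0.51, adjusted p of limma 0.0073), and the glycosyltransferases B4galt4 and St6gal1 (log2 fold changes 0.61 and 0.65, adjusted p of limma 0.045 and 0.044). The calls of B4galt4 and St6gal1 were each lost without any of at least 5 single libraries and with a pseudocount of 0.1 or no filter, and with the NSC libraries fitted alone 1 of the 12 genes passed, 2510002D24Rik.

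The genes were also grouped by function, in lists chosen with earlier results known, which held 157 of the 285. The median log2 fold change was negative in all 11 lists in mESCs and at day 7, in 10 of 11 at day 9 and in 4 of 11 in NSCs. The counts of called genes below are small, and stand beside 2.5% of all tested genes called lower at day 7 and 4.11% at day 9. For spindle, centrosome and cilium genes (13 genes, among them Dzip3 and Ift57) the median was -0.14 in mESCs, -0.23 at day 7 and -0.13 at day 9, with 11, 13 and 11 of 13 negative and 0 called. For protein folding and turnover (20 genes, such as the chaperonin subunit Cct8 and the proteasome subunit Psmd2) it was -0.11, -0.15 and -0.16, with 1 of 20 called lower at day 9. For RNA processing and translation (28 genes) it was -0.074, -0.083 and -0.16, with 1 (3.57%) called lower at day 7, which was the joint entry Mrps6,Slc5a3, and 1 at day 9. For mitochondria and metabolism (23 genes) it was -0.097, -0.12 and -0.16, with 2 (8.70%) called lower at day 9.

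The functional lists did not all lie at the median of the chromosome. DNA replication, repair and chromatin assembly (12 genes, among them the helicase subunit Mcm4 and the histone chaperone Chaf1b) had -0.025, -0.025 and -0.12 at the 3 stages with 7, 7 and 9 of 12 negative, and 0 called at these stages. In NSCs 1 was called lower, N6amt1, a methyltransferase gene (log2 fold change -0.49, adjusted p of limma 0.037). The call was lost without any 1 NSC library other than WT replicate 2, and with scaling to the same sum (adjusted p of limma 0.084). Cell adhesion and axon guidance (12 genes, such as Robo1, Cd47 and Gap43) had -0.15, -0.11 and -0.13 with 12, 8 and 7 of 12 negative. Of these, 2 were called lower at day 7, 4 lower and 1 higher (Jam2) at day 9 and 2 lower in NSCs, where the shares of all tested genes called were those given above (2.5%, 4.11% and 2.58%, and 3.48%). Transcription factors and cofactors (14 genes, such as Ets2, Gabpa and Bach1) had -0.064, -0.22 and -0.17. The 1 called lower at day 9 was Litaf, which encodes an endosomal membrane protein, and the 13 others were not called. Endosome, membrane traffic and transport (18 genes) had -0.098, -0.18 and -0.20, with 1 called lower at day 7, again the entry Mrps6,Slc5a3, and 2 at day 9, and kinases, phosphatases and signalling (14 genes, such as Gsk3b and Dyrk1a) had -0.045, -0.093 and -0.22, also with 1 and 2 called lower, of which 1 at day 9 is the call of the protein folding list. The 3 interferon and cytokine receptor genes Ifnar1, Ifnar2 and Ifngr2 were negative at these 3 stages with 0 called. The exception at day 9 was the list of 3 germ cell and early embryo genes, Dppa2, Dppa4 and Morc1, with -0.27 in mESCs, -0.17 at day 7 and 0.34 at day 9.

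The genes were also listed by human position. The 48 genes with an orthologue on human chromosome 21 had medians of -0.091, -0.13, -0.17 and 0.0080 from mESCs to NSCs, with 37, 38, 37 and 21 negative. The 24 genes of the 22q11 list had -0.051, -0.061, -0.14 and 0.030, with 17, 17, 18 and 9 negative. Both lists lie apart on the chromosome and were lower in KO at the same 3 stages by these medians, and the difference between them was not tested.

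Along differentiation, chromosome 16 genes changed in both directions in both lines. Against mESCs of the same line, in WT 79 rose and 105 fell at day 7 (64.6% called, against 59.2% of all tested genes), 97 rose and 116 fell at day 9 (74.7%, against 71.5%), and 77 rose and 144 fell in NSCs (77.5%, against 75.2%). In KO 69 rose and 112 fell at day 7 (63.5%, against 61.3%), 83 rose and 121 fell at day 9 (71.6%, against 71.3%), and 88 rose and 127 fell in NSCs (75.4%, against 76%). This division depends on the scaling. With each library scaled to the same FPKM sum, more genes rose than fell, with 96 and 69, 133 and 72, and 118 and 87 in WT, and 90 and 78, 112 and 86, and 135 and 71 in KO. Against the other autosomes, the median log2 fold change was 0.24 lower in WT NSCs over WT mESCs (-0.30 for chromosome 16, -0.059 for the other autosomes), the lowest of the 19 autosomes, and in KO NSCs over KO mESCs it was -0.20 against -0.080.

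The largest changes from mESCs to NSCs were taken among genes called in both lines. Slc15a2, a peptide transporter of astrocytes, had at most 0.480 FPKM in each of the 6 mESC libraries and 33.1, 64.8 and 44.5 FPKM in WT NSCs and 57.2, 56.6 and 48.6 FPKM in KO NSCs. Gap43, Abat (the GABA transaminase), Arhgap31 (a GTPase-activating protein for Rac and Cdc42) and Snn (stannin) were the other 4 of the 5 largest rises, with log2 fold changes in WT and KO of 5.29 and 4.86, 4.30 and 4.96, 3.91 and 4.26, and 3.46 and 4.13. Dppa4 had 106, 104 and 105 FPKM in WT mESCs and 89.8, 88.2 and 82.7 FPKM in KO mESCs and was at most 0.162 FPKM in NSCs. Its neighbours Dppa2 and Morc1 ranged from 45.5 to 93.2 FPKM in mESCs, and in NSCs Morc1 was listed at 0 in all 6 libraries and Dppa2 in 5. Vpreb2 and Fetub, the other 2 of the 5 largest falls, had 23.8 to 52.4 FPKM and 42.6 to 60.1 FPKM in mESCs and at most 0.184 FPKM in NSCs.

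An interaction term tested whether KO acted differently at a later stage than in mESCs. At day 7 1 of the 285 genes passed (0.351%, against 1.68% of all tested genes), and at day 9 3 did (1.05%, against 2.68%). For NSCs the count was 6 (2.11%, with 2.26% of all tested genes). The median interaction over the chromosome was -0.033 at day 7, -0.049 at day 9 and 0.11 in NSCs, where the other autosomes had -0.012, -0.012 and -0.018, so that in NSCs chromosome 16 had the highest median of the 19 autosomes. In NSCs 5 of the 6 genes had a positive interaction, and at an unadjusted p under 0.05 27 of the 285 passed, against 14% of all tested genes. The count in NSCs was 16 without WT NSC replicate 1, between 1 and 3 without WT mESC replicate 1 or 3, KO mESC replicate 2 or 3, WT NSC replicate 3 or KO NSC replicate 2 or 3, and 11 with the replicate block (3.86%, against 4.16% of all tested genes). That at day 9 was 0 without WT day 9 replicate 2 or KO day 9 replicate 1 and 1 without WT mESC replicate 3, KO mESC replicate 2 or KO day 9 replicate 3. For the counts with a library left out, the shares of all tested genes are not given here. Those counts show only how far the calls hang on single libraries.

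The 5 genes with the highest levels among the 285, some of the 11 genes left out by symbol being higher, were broadly expressed genes, and none of them passed the test of KO against WT at any stage with the settings used throughout. Sod1, the cytosolic copper-zinc superoxide dismutase, averaged 872.5 FPKM, Ranbp1, a cofactor of nuclear transport, 773.6 FPKM, Hmgn1, a nucleosome-binding protein, 649.2 FPKM, Cct8 280.9 FPKM and Fam162a 232.6 FPKM. Their log2 fold changes in mESCs, at day 7 and at day 9 were 0.060, -0.10 and 0.11 for Sod1, -0.028, 0.064 and 0.076 for Ranbp1, -0.049, -0.11 and -0.17 for Hmgn1, -0.22, -0.086 and -0.049 for Cct8, and -0.41, -0.25 and -0.41 for Fam162a. In NSCs they were 0.38, -0.027, -0.012, 0.063 and 0.35 in the same order. The adjusted p of limma for Sod1 in NSCs, 0.059, became 0.021 with the replicate block, 0.0011 and 0.038 with the scalings to the same sum and by median ratio, and 0.0031 without WT replicate 1, and that of Fam162a at day 9, 0.50, became 0.019 with the libraries of day 9 fitted alone. The mean over the 285 genes ran from 5.07 to 872.5 FPKM with a median of 18.9 FPKM, against 19.5 FPKM for the 8660 genes of other autosomes. Just inside the limit of 5 FPKM lay 1700007L15Rik (5.07), Sec22a (5.16) and Arhgap31 (5.18), and just outside Gnb1l (4.99), D16Ertd472e (4.93) and Mkl2 (4.87).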

How the data were processed

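RNA was sequenced from 24 libraries (8 groups of 3) prepared with a stranded mRNA kit. The authors trimmed reads with Trim Galore 0.6.6, aligned them to mm9 with TopHat2 2.1.1 and, with rRNA and X reads removed, deposited FPKM per gene from Cuffdiff. The FPKM were used as deposited. Library totals are not given, so precision was judged from replicates, though low genes stepped in whole multiples (95.2% of 31400 values within 0.05 of a whole number), which gave relative reads of 0.811 to 1.15. The unit was the smallest value of each of the 2798 low genes, so that value was whole by construction. Another 12 FPKM columns of other samples were not used.

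Members and lists were chosen with earlier results of these data known. For the test, log2(FPKM + 1) of 12105 genes outside X and Y was fitted in limma 3.58.1 (R 4.3.3) on 8 group means, with trend and robust moderation, a two-sided test and Benjamini-Hochberg adjustment. Checked on simulated data for KO against WT at day 9 over 12105 genes, 89% of changes of 1 and 98% of changes of 2 (log2) were recovered. Smaller changes, like most of those reported here, were not simulated. Replicate numbers were taken as pairing libraries where all 3 deviations correlated over 0.1, as in mESCs (0.14 to 0.44) and NSCs (0.18 to 0.34). Named genes (51) were those with the 5 largest rises and falls in KO against WT with no overlap of libraries, the 5 largest rises and falls in NSCs called in both lines, the 5 highest levels, the 2 largest differences of each list, those called at 3 or more stages, those nearest the limit of 5 FPKM and the 3 largest interactions of each stage, and 4 more were named after their values were seen. Alternatives were a pseudocount of 0.1, no filter, the compared groups only, the replicate block, 2 scalings and leaving out each library.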

Additional observations from a re-analysis of the deposited data

Results flagged for a closer look

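For 10 results the effect of KO differed from that in mESCs by the interaction term of limma (log2, adjusted p over 12105 genes), and the differences below are KO minus WT at the stage minus the same in mESCs. At day 7 Mrps6,Slc5a3 had -1.11 (adjusted p 0.0075), higher in KO mESCs and lower in KO at day 7 by its means. At day 9 Ephb3 had -1.12 (adjusted p 0.019), Itsn1 -0.51 (0.040) and Dppa4 0.94 (0.039). The Ephb3 difference was lost without WT replicate 2 or KO replicate 1 of day 9, that of Itsn1 without any 1 library of day 9 or any of 4 mESC libraries, and that of Dppa4 without any 1 mESC library, WT replicate 2 of day 9 or KO replicate 1 or 3 of day 9. The differences of Itsn1 and Dppa4 were also lost when 0.1 was the pseudocount (adjusted p 0.065 and 0.28), with scaling to the same sum (both 0.091) and with the compared groups only (0.083 and 0.11), and that of Itsn1 with scaling by median ratio (0.061).

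In NSCs 2510002D24Rik had -1.51 (adjusted p 0.0027), Hunk, a protein kinase gene, 1.11 (0.024), Dexi 0.95 (0.041), Chmp2b, an ESCRT-III subunit gene, 0.69 (0.045), Nmral1 0.60 (0.049) and Atp6v1a, a subunit gene of the vacuolar proton pump, 0.47 (0.042). Hunk had 5.71, 7.29 and 6.89 FPKM in WT and 4.49, 5.09 and 4.26 FPKM in KO mESCs, and 4.94, 2.27 and 3.45 FPKM in WT and 5.83, 4.63 and 8.05 FPKM in KO NSCs, where the groups overlapped. Atp6v1a had 58.6, 48.7 and 57.1 FPKM in WT and 42.9, 43.7 and 43.5 FPKM in KO mESCs, and 50.2, 44.9 and 46.3 FPKM in WT and 50.1, 52.0 and 54.7 FPKM in KO NSCs. Of these 6 only 2510002D24Rik kept its call without each library in turn, and none of the 6 did with the mESC and NSC libraries alone. Those of Atp6v1a and Chmp2b were also lost with scaling to the same sum (adjusted p of limma 0.056 and 0.0505). That of Nmral1 was also lost with no filter (0.052).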

How the results depend on the processing

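The lower level of chromosome 16 against the other autosomes in mESCs, at day 7 and at day 9 kept its direction with a pseudocount of 0.1 and without each library in turn (median difference -0.14 to -0.10, -0.16 to -0.14 and -0.18 to -0.16), and chromosome 16 had the lowest median of the autosomes under each. No filter, the replicate block and the compared groups only leave this difference as it is by construction, and the scalings move all autosomes nearly alike, so these bear little on it. In NSCs the difference ran from -0.0056 to 0.010. Counts of called genes depended more on the settings. With a pseudocount of 0.1 there were 2 calls in mESCs (0.702%, against 0.760% of all tested genes), 15 at day 9 (5.26%, against 4.48%) and 1 for the interaction at day 9 (0.351%, against 1.36%). With no filter there were 2 in mESCs (0.702%, against 0.903%). With the compared groups only there were 51 at day 9 (17.9%, against 11.4% of all tested genes), 1 in NSCs and 0 for the interaction in NSCs (27 of 285 genes at an unadjusted p under 0.05 in the fit of all groups). With the replicate block, paired by number within a stage, there were 5 in mESCs, 20 in NSCs and 11 for the interaction in NSCs (shares above). The block gave 16 at day 7, 2 for the interaction at day 7 and 8 for the interaction at day 9. Replicate numbers did not pair the libraries at days 7 and 9 (correlations -0.11 to 0.096). The block changed no other count by over 1.5 times. With the same FPKM sum the median log2 fold changes were -0.16 at day 7, -0.27 at day 9 and 0.055 in NSCs. Leaving out 1 library at a time gave 0 to 5 calls in mESCs, 3 to 10 at day 7, 8 to 16 at day 9 and 7 to 29 in NSCs, 0 to 3 and 1 to 16 for the interactions at day 9 and in NSCs, and medians of -0.13 to -0.073 in mESCs and -0.0075 to 0.030 in NSCs. Where no share of all tested genes stands beside a count, it shows dependence on the settings only and is no result about chromosome 16. The causes were not tested. Levels without read totals limit precision for genes near the floor.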
